A study of Mus musculus with 6 samples.

Results

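The CC chemokines are small secreted proteins named for a pair of adjacent cysteines, and 10 of their genes were followed here: Ccl2, Ccl3, Ccl4, Ccl5, Ccl7, Ccl8, Ccl11, Ccl12, Ccl19 and Ccl20. They were chosen by name, with earlier results of these data known. The shares over all genes given beside them are therefore descriptions and not tests. Each member had a probe set with exactly 1 gene symbol, and all 10 were among the 19926 genes tested. The signals came from primary mouse astrocytes, the main glial support cells of the central nervous system, cultured from C57BL/6J animals. Tumour necrosis factor (TNF), an inflammatory signal protein, had been given at 50 ng/mL to 3 of the samples and not to the 3 controls, and all were assigned the 24 h time point. RNA of each sample was hybridised to 1 Affymetrix Mouse Gene 1.0 ST array. No allele or further agent is named for either group, and what the control cultures received in place of TNF is not stated. The labels do not say whether the replicates came from separate cultures or animals. The control and TNF samples of each replicate number share a prefix in their descriptions, and its meaning is not given. The p-values therefore speak only of the spread among the samples at hand, and that spread may be technical.

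CC chemokines act through G protein-coupled receptors of the Ccr family on leukocytes and draw these cells along a gradient. In the inflamed brain, astrocytes and microglia, the resident macrophages, are both known sources of them. Many of their promoters carry sites for NF-kB, the transcription factor family that TNF receptors activate, and several of the genes also respond to interferons.

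Values below are log2 signals, and a difference is the TNF value less the control value. Large folds are compressed on arrays, and the true transcript ratios may exceed those given. A gene was called when its limma p, adjusted by the Benjamini-Hochberg method over all genes tested, lay under 0.05. In RNA from whole cultures, fewer cells of a type and less RNA per cell cannot be told apart. Of the 10 astrocyte markers 9 lay above the median gene on every array, with the glutamate transporter Slc1a3 at 12.72 ± 0.07 in controls (mean ± SD, n = 3). The calcium-binding protein S100b was the exception at 6.59 ± 0.13. The arrays of replicate 3 stood apart in their spread, with lower quartiles over genes of 6.27 and 6.33 against 6.01 to 6.09 on the other 4 arrays.

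Ccl2, Ccl7 and Ccl5 rose by between 29.0-fold and 45.5-fold, and the other 7 members did not pass the test. The 3 calls were 3 of 10 members, beside 3.87% of all genes tested that were called higher. None of the 10 was called lower, beside 3.33% of all genes, and 7.20% of all genes were called in either direction. Only 24 genes, or 0.120% of those tested, were at least 16-fold higher, and Ccl2, Ccl7 and Ccl5 ranked 3, 4 and 6 among all genes by difference. The median difference of the 10 members was 0.85, against -0.0033 over all genes. The TNF arrays all lay above the control arrays in 5 members (Ccl2, Ccl5, Ccl7, Ccl8 and Ccl12), beside 12.3% of all genes. In none of the 10 did they all lie below, beside 11.7%. The 3 calls were made without replicate 2 and without replicate 3 as well, and without replicate 1 there were 2.

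**Figure D1:**
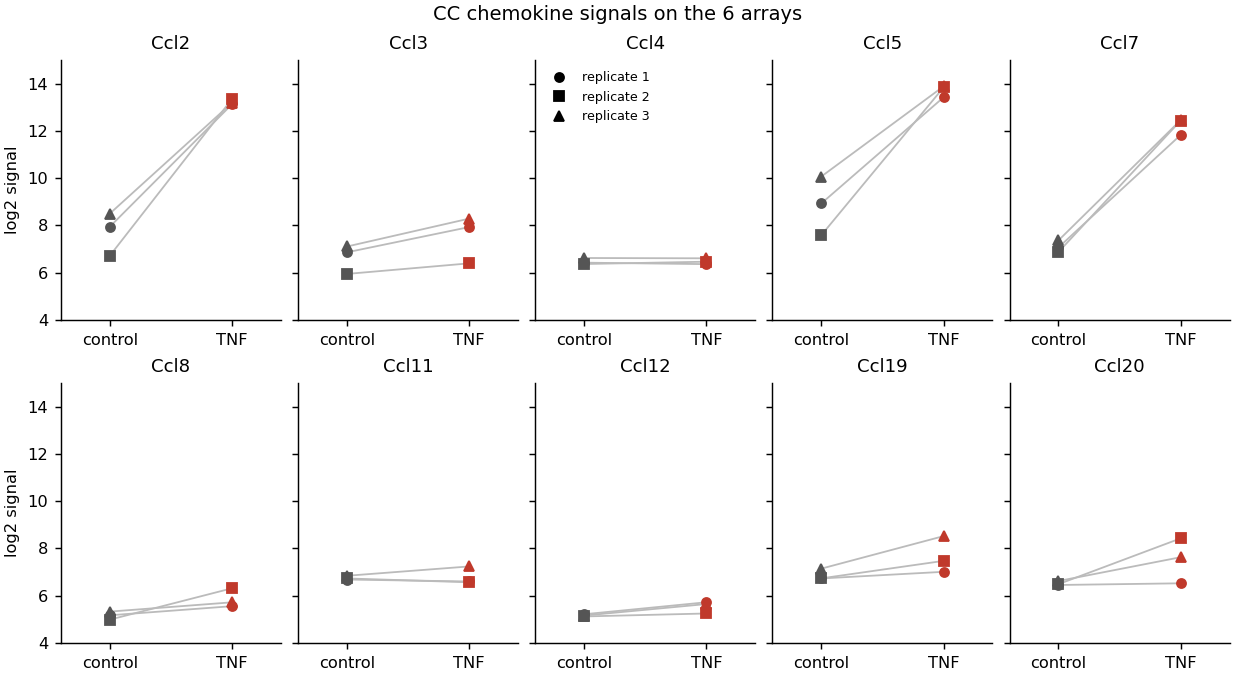
Log2 signal of each of the 10 CC chemokine genes on the 3 control (grey) and 3 TNF (red) arrays; the marker shape gives the replicate number and a line joins the arrays of the same number. Ccl2, Ccl5 and Ccl7 climb to signals between 11.83 and 13.89, whereas Ccl4 and Ccl11 stay between 6.36 and 7.24.

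Ccl2, the main attractant of monocytes through the receptor Ccr2, had signals of 7.95, 6.72 and 8.50 in controls 1, 2 and 3. With TNF it stood at 13.14, 13.36 and 13.20 in the samples with the same numbers. The groups were far apart, and the controls spanned 1.78 while the TNF arrays spanned only 0.22. The difference was 5.51 (SE 0.39, n = 3 per group, limma adjusted p = 0.000209), a 45.5-fold rise with a 95% interval from 24.1-fold to 85.7-fold. Within the pairs the rise was 36.5-fold, 99.5-fold and 25.9-fold, largest in pair 2, where the control signal was lowest.

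Ccl7, a second monocyte attractant that also acts through Ccr2, stood at 7.07, 6.87 and 7.37 in controls 1 to 3 and at 11.83, 12.44 and 12.46 with TNF. Its controls were much closer together than those of Ccl2, and its difference of 5.14 was the most precise of the 3 calls (SE 0.20, 95% interval 4.67 to 5.62, limma adjusted p = 2.03e-05). The pairs gave 27.2-fold, 47.4-fold and 34.2-fold. When each of the 6 arrays was left out in turn, Ccl7 passed every time (adjusted p up to 0.000454), as did Ccl2 (up to 0.00212).

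Ccl5, which attracts T cells and macrophages, had the widest control values of the 10 genes: 8.93, 7.59 and 10.07. With TNF it reached 13.42, 13.84 and 13.89, a range of 0.46 against 2.48 in the controls. The rise of 29.0-fold had a 95% interval from 12.2-fold to 68.7-fold (limma adjusted p = 0.0018, n = 3 per group). The pairs differed more than those of Ccl7, at 22.5-fold, 76.5-fold and 14.1-fold. The call survived the loss of any single array (adjusted p up to 0.0121) and was lost without replicate 1 (adjusted p = 0.0538).

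Ccl3, Ccl8, Ccl12, Ccl19 and Ccl20 were higher with TNF in every pair without passing the main test. In all, 8 of the 10 members were higher in all 3 pairs, beside 25.7% of all genes, and 3 were at least 0.5 higher in each pair, beside 3.38%. Control and TNF samples of the same replicate number deviated together, so a fit with the number as a block was set beside the main one. In that fit 8 members were called higher, beside 9.73% of all genes, and none lower, beside 11.8%. Those 5 genes were the ones gained. With array weights 4 members were called higher, the fourth being Ccl8, beside 5.79% of all genes. In that fit TNF 2, where Ccl8 was highest, had the largest weight (2.235) and TNF 3 the smallest (0.3395).

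**Figure D2:**
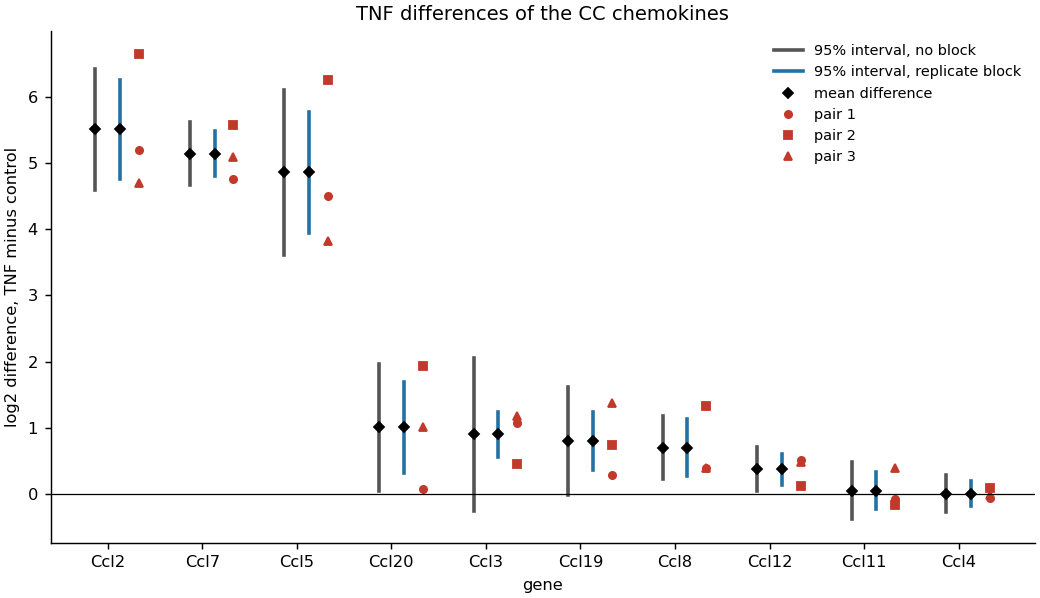
Log2 difference of each CC chemokine (TNF minus control, black diamonds) with its 95% interval without a block (grey) and with the replicate number as a block (blue); red markers give the 3 pair differences. Ccl2, Ccl7 and Ccl5 lie between 4.86 and 5.51, the intervals of Ccl3 and Ccl19 reach below 0 without the block but not with it, and those of Ccl11 and Ccl4 include 0 in both fits.

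Ccl3, the macrophage inflammatory protein 1-alpha that signals through Ccr1 among other receptors, stood at 6.86, 5.95 and 7.11 in controls 1 to 3 and at 7.93, 6.39 and 8.29 with TNF. Both arrays of replicate 2 were low, so the groups overlapped. The difference was 0.90 with a 95% interval of -0.26 to 2.06 (limma adjusted p = 0.423), and 0.57 to 1.23 with the replicate block (adjusted p = 0.00429). The pair differences were 1.07, 0.45 and 1.18. The size depended on single arrays: it was 0.55 without control 2, 0.52 without TNF 3, 1.47 without TNF 2 and 0.42 with array weights, with adjusted p from 0.0634 to 0.79. Ccl4, the closely related macrophage inflammatory protein 1-beta, had a much narrower spread, with all 6 signals between 6.36 and 6.62. Its difference was 0.0075, with an interval of -0.28 to 0.29 (limma adjusted p = 0.991).

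Ccl20, the ligand of Ccr6, which attracts Th17 cells and dendritic cells, differed widely between the pairs. Controls 1 to 3 stood close together at 6.45, 6.49 and 6.62, while the TNF arrays gave 6.53, 8.43 and 7.63. TNF 1 thus lay at the level of the controls and TNF 2 well above them, with pair differences of 0.07, 1.94 and 1.01. The difference of 1.01 (SE 0.41) had adjusted p = 0.235 with limma, 0.0496 with the replicate block and 0.0167 without TNF 1, where the difference was 1.51. Without TNF 2 it was 0.56 (adjusted p = 0.474) and without replicate 2 it was 0.54 (adjusted p = 0.737).

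Ccl19, a ligand of Ccr7 that guides lymphocytes and dendritic cells in lymphoid tissue, stood at 6.73, 6.74 and 7.15 in controls 1 to 3 and at 7.01, 7.48 and 8.52 with TNF. TNF 3 was the highest, control 3 was above TNF 1, and the pair differences were 0.28, 0.74 and 1.38. The difference of 0.80 had adjusted p = 0.275 with limma and 0.0204 with the block. Without TNF 3 the difference was 0.37 (adjusted p = 0.34) and without replicate 3 it was 0.51 (adjusted p = 0.226). Ccl19 has 5 probe sets, 2 of them with values equal to 4 decimals, and their differences ran from 0.80 to 0.93. Near-identical gene copies may share these signals, so the value for Ccl19 is uncertain.

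Ccl8, Ccl12, Ccl11 and Ccl4 gave dim signals that lay below the median gene on all 6 arrays. Ccl12, a Ccr2 ligand of the mouse with no direct human counterpart, stood at 5.21, 5.12 and 5.16 in controls 1 to 3 and at 5.72, 5.25 and 5.65 with TNF. Its groups did not overlap, but TNF 2 was only 0.13 above control 2, and the difference of 0.37 had adjusted p = 0.208 with limma and 0.0364 with the block. Ccl8, an agonist of Ccr8 in the mouse, stood at 5.17, 4.99 and 5.33 in controls 1 to 3 and at 5.56, 6.32 and 5.72 with TNF. The pair difference was largest in pair 2 (1.33 against 0.39 in pairs 1 and 3), and the difference of 0.70 had adjusted p = 0.0935 with limma, 0.0318 with the block and 0.0345 with array weights. Without replicate 2 it was 0.39 (adjusted p = 0.422). Ccl11, the eosinophil attractant eotaxin, was like Ccl4 in giving a difference close to 0: controls 1 to 3 stood at 6.69, 6.73 and 6.84 and the TNF arrays at 6.60, 6.57 and 7.24. Its difference of 0.05 had an interval of -0.38 to 0.49 (limma adjusted p = 0.968).

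The spread within groups differed between the members. Ccl2 and Ccl5 spread widely in the controls and narrowly with TNF, where their signals were near the highest value of any array (14.37). In 7 of the 10 members the TNF arrays spread more widely than the controls, Ccl20 (1.90 against 0.17) and Ccl19 (1.51 against 0.42) above all. In Ccl3 both groups were wide, at 1.16 and 1.89, and in Ccl4 both were narrow, at 0.25 each.

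Ccl2, Ccl7, Ccl11, Ccl12, Ccl8 and Ccl1 follow each other in this order in the RefSeq gene table of GRCm38.p6, as do Ccl5, Ccl9, Ccl6, Ccl3 and Ccl4. Large and small differences thus stood side by side. Next to Ccl2 and Ccl7, with differences above 5, the neighbours Ccl11, Ccl12 and Ccl8 had differences from 0.05 to 0.70 and Ccl1, a ligand of Ccr8, one of -0.09. Next to Ccl5 stood Ccl9 with a difference of 0.84, and the adjacent Ccl3 and Ccl4 differed by 0.90 and 0.0075.

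**Figure D3:**
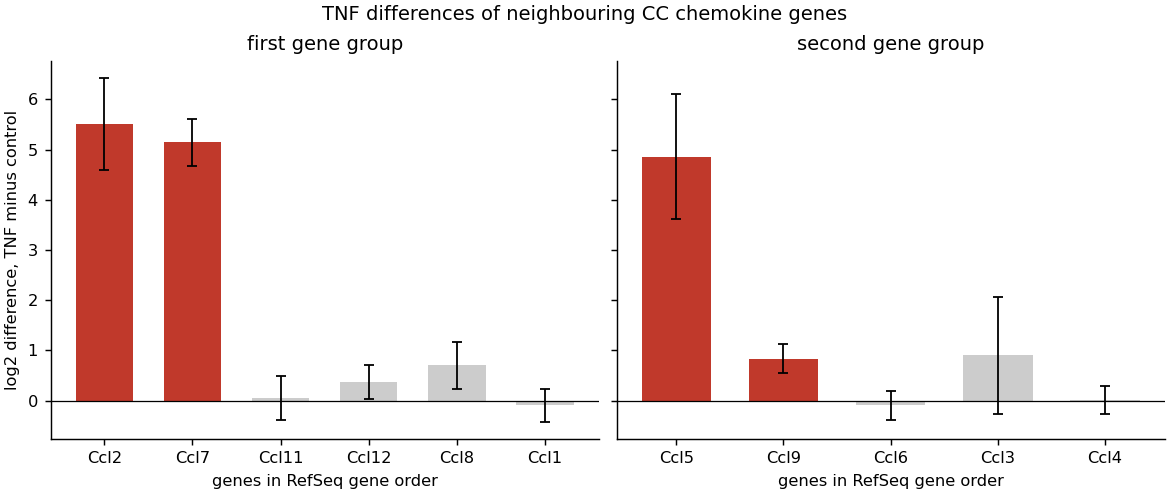
Log2 difference (TNF minus control, bars from 0, with 95% intervals from the fit without a block) of the CC chemokine genes in 2 runs of neighbouring genes, in RefSeq gene order; red bars passed an adjusted p under 0.05. Ccl2 and Ccl7 at 5.51 and 5.14 adjoin Ccl11 at 0.05, and Ccl5 at 4.86 heads the second run.

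Promoter sequence was held for 5 members (Ccl3, Ccl8, Ccl12, Ccl19 and Ccl20). None was held for the called members Ccl2, Ccl5 and Ccl7, nor for Ccl4 and Ccl11. The 250 bases before the RefSeq start site were searched on both strands for 5 motifs: the kB core bound by NF-kB (GGGA and CC with 4 bases of any kind between them), the shorter kB element GGAANTTCC, the AP-1 element TGANTCA, a tandem element of the kind that interferon regulatory factors bind (GAAA repeated after 2 bases of any kind), and the TATA box TATAAA. Of 32817 such windows of all genes, 17.6% held the kB core, 0.8% the shorter element, 6.8% the AP-1 element, 3.0% the tandem GAAA element and 12.4% the TATA box. The 4 members below, whose TNF differences lay between 0.37 and 1.01, are shown 5′ to 3′ in the direction of the gene with each match in capitals. No 2 matches overlap. The Ccl20 window (GRCm38.p6, chr1:83116516-83116765, plus strand) has a kB core match, GGGAAAACCC, that begins 81 bases before the start. The Ccl19 window (chr4:42756366-42756615, minus strand) has the kB core match GGGAAGACCC at its far end, 250 bases before the start, and then the tandem GAAA match GAAAGTGAAA. The Ccl12 window (chr11:82101595-82101844, plus strand) has a TATA box 31 bases and the shorter kB element 17 bases before the start. The Ccl8 window (chr11:82114935-82115184, plus strand) has a TATA box 32 bases before the start and none of the other motifs, and the Ccl3 window held no match.
Ccl20: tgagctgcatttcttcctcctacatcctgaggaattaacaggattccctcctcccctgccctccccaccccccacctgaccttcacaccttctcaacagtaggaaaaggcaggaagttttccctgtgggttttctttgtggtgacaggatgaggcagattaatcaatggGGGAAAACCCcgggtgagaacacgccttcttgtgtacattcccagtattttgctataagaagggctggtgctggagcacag
Ccl19: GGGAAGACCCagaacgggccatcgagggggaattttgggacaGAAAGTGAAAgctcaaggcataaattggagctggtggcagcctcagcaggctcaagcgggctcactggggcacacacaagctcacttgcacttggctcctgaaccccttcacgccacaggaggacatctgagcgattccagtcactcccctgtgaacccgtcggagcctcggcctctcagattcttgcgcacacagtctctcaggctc
Ccl12: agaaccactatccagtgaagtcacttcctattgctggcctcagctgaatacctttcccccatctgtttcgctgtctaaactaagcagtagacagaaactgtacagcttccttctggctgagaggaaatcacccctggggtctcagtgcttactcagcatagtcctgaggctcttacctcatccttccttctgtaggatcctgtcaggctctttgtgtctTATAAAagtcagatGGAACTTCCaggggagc
Ccl8: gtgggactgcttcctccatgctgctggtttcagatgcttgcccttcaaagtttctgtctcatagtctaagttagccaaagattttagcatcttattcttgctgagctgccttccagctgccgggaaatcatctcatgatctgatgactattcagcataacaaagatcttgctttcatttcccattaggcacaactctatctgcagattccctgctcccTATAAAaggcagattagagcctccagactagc
A match is a description of letters and not a bound site, and a window without one says nothing about the factor.

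Markers of microglia differed between the replicate numbers, and the control signals of several members ran the same way. The 19 measured microglia markers had mean log2 signals of 7.06, 6.33 and 7.85 in controls 1, 2 and 3 and of 7.42, 6.44 and 7.86 with TNF. Control 2 was the lowest control in 19 of 19 markers, beside 7383 of all 19926 genes. TNF 2 was the lowest TNF array in 18 of 19, beside 5460 of all genes. Among the markers, C1qb, a complement subunit made by microglia, stood at 8.25, 6.17 and 9.16 in controls 1 to 3. Laptm5, a lysosomal protein of leukocytes, stood there at 7.93, 6.29 and 9.53. Their control SDs of 1.53 and 1.62 were the largest of the 19 markers, and the smallest was 0.09. The median difference of the 19 markers with TNF was 0.09, and none was called, beside 7.20% of all genes. With the replicate block 3 were called higher, beside 9.73% of all genes. On every array 7 of the 19 lay below the median gene.

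The microglia marker means had the replicate order 2, 1, 3 from low to high in both groups. That order was not particular to microglia. The means of the 10 astrocyte markers had it too, at 11.12, 11.02 and 11.32 in controls 1, 2 and 3. With TNF these means were 10.79, 10.64 and 10.91. In the controls 6 of the 10 members had the order, beside 22.3% of all genes (Ccl2, Ccl3, Ccl4, Ccl5, Ccl7 and Ccl8). With TNF only Ccl3 and Ccl11 had the order, beside 18.6%. Ccl3 alone of the members had it in both groups, beside 8.18% of all genes. Ccl2 and Ccl5 followed the order in the controls but were at similar signals in all 3 TNF arrays. Their TNF means lay at percentiles 99.85 and 99.96 of all genes. Whether array compression narrowed these signals was not tested. With the microglia marker mean of each array as a covariate, a fit added after the data were seen, the differences were 5.42 for Ccl2, 5.12 for Ccl7 and 4.72 for Ccl5, and these 3 were again called. In that fit 5.21% of all genes were called higher. Ccl3 had 0.73 (SE 0.20, limma adjusted p = 0.0658). Which cells made each transcript was not tested.

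**Figure D4:**
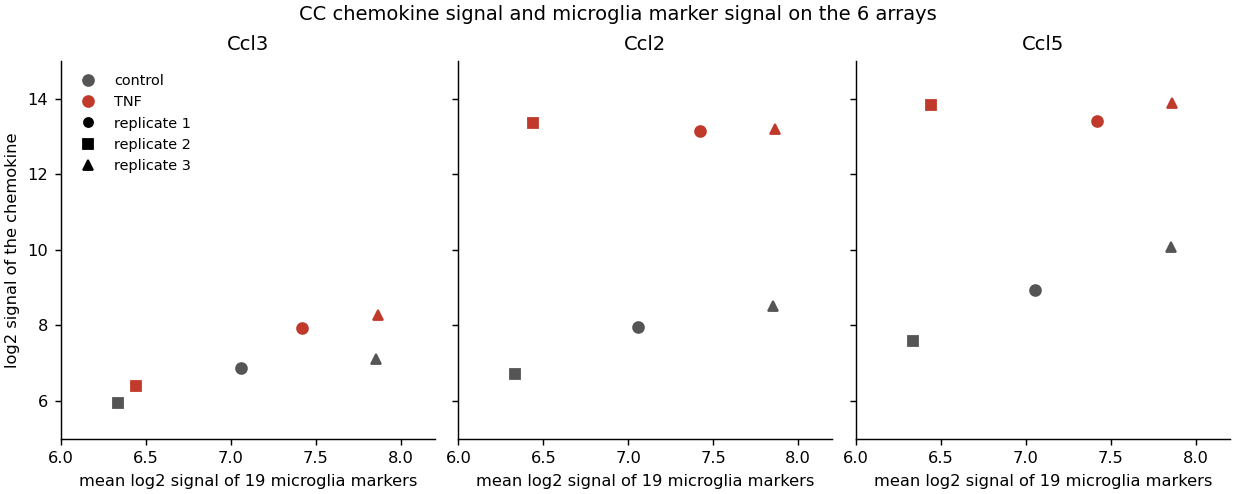
Log2 signal of Ccl3, Ccl2 and Ccl5 against the mean log2 signal of 19 microglia markers on the same array, for controls (grey) and TNF samples (red), with the marker shape giving the replicate number. Ccl3 is lowest in replicate 2 in both groups, while Ccl2 and Ccl5 follow the microglia mean in the controls and lie between 13.14 and 13.89 with TNF.

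Lists of markers of other cell types were read the same way. None of the 13 measured lymphocyte and neutrophil markers was called, and all 13 lay below the median gene on every array. So did all 8 endothelial markers, but only 2 of 10 fibroblast and mural, 5 of 7 oligodendrocyte and 4 of 8 neuron markers. Some markers of these other cells were thus bright, with control means of 13.37 for Acta2 and 10.84 for Map2 (n = 3). Among 8 endothelial markers the VEGF receptor Kdr fell by 0.92 on the log2 scale, among 10 fibroblast and mural markers the smooth muscle actin Acta2 fell by 0.96, and among 8 neuron markers Map2 fell by 1.22 and Syp by 0.62. None of the 7 oligodendrocyte markers was called. No member of these 5 lists was called higher. Of all genes 3.87% were called higher and 3.33% lower. Among the 10 astrocyte markers Glul fell by 0.88, Aldoc by 1.01 and Gja1, the gap junction protein connexin 43, by 1.00 on the log2 scale, and none rose. Of the others, Gfap differed by -0.51, Sox9 by -0.76, Aqp4 and Slc1a2 by 0.60 each, Slc1a3 by -0.28, S100b by -0.40 and Aldh1l1 by -0.08, without passing. With the replicate block 2 astrocyte markers were called higher and 6 lower. In that fit 3 fibroblast and mural markers, 3 neuron markers and 1 endothelial marker were called lower. No lymphocyte, neutrophil or oligodendrocyte marker was called with it. Of all genes 9.73% were then called higher and 11.8% lower. The part of all these markers in the chemokine results was not tested.

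Among the other CC chemokines 2 of 9 measured genes rose and none fell, with a median difference of 0.09. Of all genes 3.87% were called higher and 3.33% lower. Ccl17, a ligand of Ccr4 that attracts Th2 and regulatory T cells, stood at 6.56, 6.79 and 6.91 in controls 1 to 3 and at 7.79, 8.64 and 7.81 with TNF. The groups did not overlap, and the 2.51-fold rise passed (SE 0.24 on the log2 scale, n = 3 per group, limma adjusted p = 0.0148) but not without control 1 (adjusted p = 0.0662). Ccl9, a Ccr1 ligand of the mouse, stood at 5.91, 6.07 and 6.17 in controls 1 to 3 and at 6.80, 7.03 and 6.84 with TNF, a 1.79-fold rise (limma adjusted p = 0.00629) that held in every fit without 1 array and was lost without replicate 1 or 2 (0.0904 and 0.0993). Ccl17 was also lost without any 1 replicate pair (0.0531 to 0.113). The other 7 differed by -0.10 to 0.17. Ccl21a and Ccl27a were measured only by probe sets shared with other genes.

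Of the receptors and their relatives 1 of 15 measured genes rose and none fell, beside 3.87% and 3.33% of all genes. The median difference was -0.007, and all 15 lay below the median gene on every array. The gene that rose was Ccrl2, a non-signalling receptor that binds the attractant chemerin. It stood at 5.85, 5.90 and 6.24 in controls 1 to 3 and at 6.47, 7.15 and 7.40 with TNF, so that each TNF array lay above every control. The 2.02-fold rise passed narrowly (limma adjusted p = 0.0447). It no longer passed when any of 5 arrays was left out (without control 1, 2 or 3 and without TNF 2 or 3, adjusted p = 0.0671 to 0.157) and with all probe sets tested (adjusted p = 0.103). It was also lost without any 1 replicate pair (0.0571 to 0.334), and passed with the replicate block. The receptors of the main responders gave low signals: Ccr2 differed by 0.25, Ccr1 by 0.28 and Ccr3 by -0.04, and none of them passed. Ackr3, a scavenging receptor, differed by 0.43 (limma adjusted p = 0.412; 0.0301 with the block), which made 2 of 15 receptors called higher with the block, beside 9.73% of all genes.

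**Figure D5:**
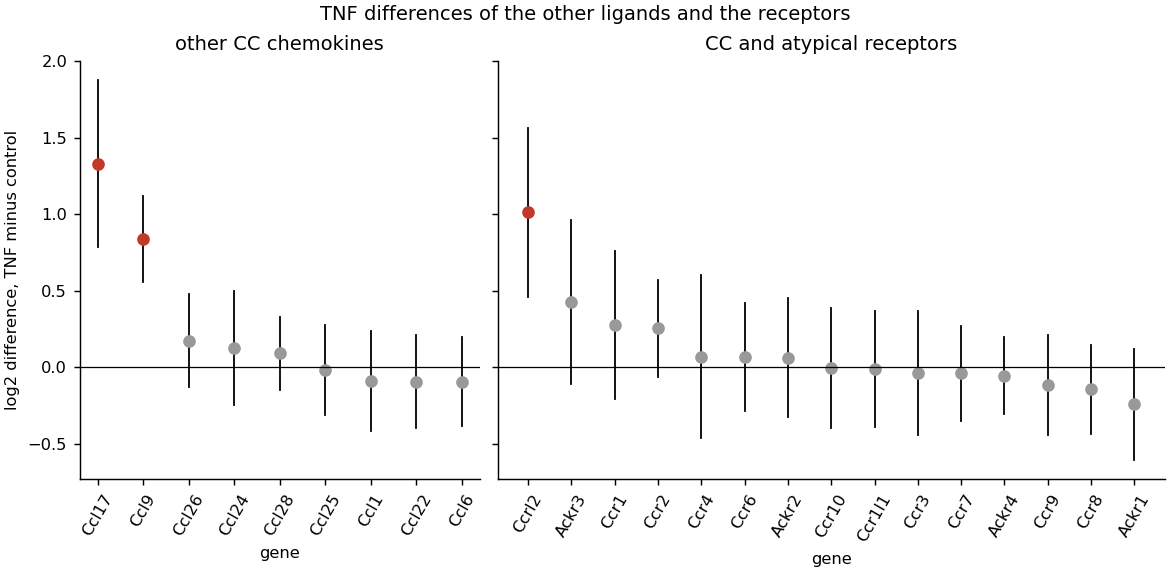
Log2 differences (TNF minus control, with 95% intervals from the fit without a block) of the 9 other CC chemokines and the 15 receptors and related genes measured; red points passed an adjusted p under 0.05. Ccl17, Ccl9 and Ccrl2 stand out at 1.33, 0.84 and 1.01, and the others lie between -0.24 and 0.43.

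Genes that act on chemokine transcripts and promoters were read from 2 further lists. Of 10 genes of mRNA decay and stability 1 rose and none fell, with a median difference of 0.05, and with the replicate block 2 were called higher and 2 lower. Over all genes the shares were 3.87% higher and 3.33% lower without the block and 9.73% and 11.8% with it, and no more is read from so few genes. The one that rose was Zc3h12a, the ribonuclease regnase-1, which degrades inflammatory transcripts, at 7.26, 6.94 and 7.46 in controls 1 to 3 and 8.27, 8.06 and 8.03 with TNF (1.87-fold, limma adjusted p = 0.0137). That call was lost without control 1 (adjusted p = 0.0528), and without replicate 1 (0.166) or 2 (0.106). Of 19 transcription factors and NF-kB regulators 14 rose and 1 fell, with a median difference of 1.11. The NF-kB subunits Nfkb2, Relb, Rel and Rela rose by 2.05, 2.05, 1.11 and 0.67 on the log2 scale, and the inhibitor Nfkbia and its relative Nfkbiz by 3.35 and 1.41. The interferon factors Irf7, Irf1 and Stat2 rose by 4.67, 3.10 and 2.19. Junb, Cebpd, Atf3, Cebpb and Fosl2 rose by 0.73 to 1.83. Fos, a subunit of AP-1, fell by 1.15 (limma adjusted p = 0.0296). The call of Rela was lost without control 2, TNF 1 or TNF 2 (adjusted p = 0.0542 to 0.0621), and that of Fos without control 1, 2 or 3, TNF 1 or TNF 2 (0.051 to 0.11) and with all probe sets tested (0.0751). With only 2 samples per group, Rela and Fos were lost without any 1 replicate pair (0.0541 to 0.24). Fosl2, Cebpb and Cebpd were lost without replicate 1 or 2 (0.0592 to 0.114), Rel without replicate 1 (0.0766) and Atf3 without replicate 2 (0.075).

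TNF signals through 2 receptors. Tnfrsf1b was higher with TNF by 0.80, 0.92 and 0.81 in pairs 1, 2 and 3 (limma adjusted p = 0.0142), a call lost without control 1 (adjusted p = 0.0608) or TNF 2 (0.0542), and without any 1 replicate pair (0.0723 to 0.111). Tnfrsf1a, present above the median gene on all arrays, differed by 0.31, 0.28 and 0.02 in the pairs and did not pass (adjusted p = 0.486).

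Outside the CC chemokines, the genes with the pattern most like Ccl2 over the 6 arrays were Smad3, Mvb12a and Loxl4 (Pearson r from 0.998 to 0.999). For Ccl5 they were Cxcl10, Shfl and Loxl4 (r = 0.998 each). The 6 points share the split between groups, which alone gives a high r. Over deviations from the group means the closest were Prr13, Tmprss11a and Cxcl10 for Ccl2 (r from 0.995 to 0.998) and Taf7l, Olfr1 and Tmprss11b for Ccl5 (0.996 to 0.998). Each is a pick from all 19926 genes over 6 arrays and only describes these arrays.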

How the data were processed

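The authors deposited 1 table of log2 values for 35544 probe sets on 6 arrays. RMA (background correction, quantile normalization, probe summary) and limma were used, per the submitters' processing notes, which as held here give no version. The log base was read from the values (2.04 to 14.37). Names came from the annotation of the array platform, and the 21777 with exactly 1 symbol were reduced to the one of highest mean per gene, which left 19926 genes. No detection calls were used, so low values may lie near background, and the number of arrays limits the precision.

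Sample titles gave the groups. TNF was compared with control by a two-sided test without a block (R 4.3.3, limma 3.58.1, lmFit followed by eBayes), with Benjamini-Hochberg adjustment over all genes tested and 4 residual degrees of freedom. Deviations from group means correlated at 0.55, 0.65 and 0.75 for same-numbered samples; the pairing rests on these values and not on the shared prefix of the descriptions, and the fit with the replicate number as a block has 2 residual degrees of freedom. An exact permutation of 3 against 3 cannot go below p = 0.1, so none was used.

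Members and lists were chosen with earlier results of these data known. Named genes were the members, the called genes of 4 lists (other CC chemokines, receptors, mRNA control, transcription factors), both TNF receptors, astrocyte markers, and the genes closest in pattern to Ccl2 and Ccl5; a few more (C1qb, Laptm5, the called markers of other cells, Ackr3, Ccr1, Ccr2, Ccr3 and Ccl1) were named after their values were seen. Promoter sequences and gene order are from RefSeq (GRCm38.p6); the motifs were chosen after the windows were seen. The fits were tested on simulated data. Tables were made in Python 3.11.15 (numpy 2.4.6, pandas 2.3.3) and plots in matplotlib 3.10.9.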

Additional observations from a re-analysis of the deposited data

How the results depend on the processing

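The count of CC chemokines called was 3 without a block, 8 with the replicate block, 4 with array weights, 3 to 4 without 1 array and 2 to 3 without 1 replicate pair; the 2 came without replicate 1, where Ccl5 was lost. The other settings gave 3: centring, quantile normalization, both filters on dim genes (which left 3 and 8 members), trend and robust variance, the probe set of highest variance, all probe sets, an adjusted p under 0.01, a log2 difference of at least 1, and the microglia covariate, which was added after the data were seen. The calls of Ccl2 and Ccl7 were made in all 19 alternative fits and that of Ccl5 in 18. The replicate block left every difference as it was.

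The median difference of the members was 0.85; it was 5.14 with genes below the median signal left out, since only Ccl2, Ccl5 and Ccl7 then remained, and 0.65 to 1.00 without 1 array or pair. Of the 8 members higher in all 3 pairs, 3 were at least 0.5 higher in each, beside 3.38% of all genes. The sign turned only in Ccl4 and Ccl11, never called. With array weights Ccl4 was at -0.0014 and Ccl11 at -0.094, and with the microglia covariate Ccl4 was at -0.012. Over the fits without 1 array or pair Ccl4 ran from -0.057 to 0.083 (below 0 without control 1, control 2, TNF 3 or replicate 2) and Ccl11 from -0.17 to 0.17 (below 0 without TNF 3 or replicate 3). The cause was not tested. Dim signals limit Ccl4, Ccl8, Ccl11 and Ccl12. Ccl3, Ccl19 and Ccl20 were also dim, above the median gene on only 2, 1 and 2 of the 6 arrays.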

Other observations

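Probe sets shared by near-identical gene copies were left out of the comparison. Of the 7 that carry CC chemokine symbols, the 4 for the Ccl21 copies had the same values as each other, from 6.64 to 6.85 over the 6 arrays, and a TNF difference of -0.07 (limma adjusted p = 0.951, all probe sets tested). The 3 for the Ccl27 copies ran from 9.44 to 10.45 with differences of -0.08 to -0.07 (adjusted p = 0.966 to 0.979). Ccl21 is a second ligand of Ccr7 beside Ccl19, and Ccl27 is a ligand of Ccr10.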
